A study of Mus musculus with 2 samples.

Results

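The genes described here drive and brake the cell cycle: cyclins, cyclin-dependent kinases (CDKs), CDK inhibitors, the licensing factors of DNA replication and a set of mitotic genes. They were taken by gene name alone: all non-control probes named as cyclins A, B, D or E, as a CDK followed by a number, as CDK inhibitors of the Cdkn1 and Cdkn2 families (members a, b and d), as Mcm genes, as Cdc6, Cdc7, Cdc20, Cdc25a to Cdc25c or Cdc45, and 11 further genes of proliferation, among them Mki67 and Pcna. The rule found 108 probes of 63 genes among 41174 probes of 30198 gene names on the array, and 53 of the 63 were measured, that is, had a probe well above background on at least 1 array. By role, 9 genes belonged to G1 and the G1/S step, 15 to S phase, 15 to G2 and mitosis, 5 to the CDK inhibitors and 13 to the other CDKs. The name pattern also took in 6 genes by the start of their names alone, such as Mcm3ap and Cdkn2aip.

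Gene expression was measured on 1 one-colour array of Gata2 CKO and 1 of WT collecting duct cells. The cells were isolated from adult kidney with DBA lectin and magnetic beads. The CKO mice were Gata2flox/-::Pax8-rtTA::Tet-Cre, so that 1 Gata2 allele was floxed and the other null in every cell, with Cre switched on by doxycycline in cells that express Pax8, which is active along renal tubules. The WT label gives no transgene. Doxycycline was given for 4 weeks from an age of 4 weeks, and the animals were of both sexes and 8 weeks old. The study describes 3 mice per genotype and the arrays carry names of mixtures, but each genotype has 1 array, so no difference has a replicate check, no test across mice was possible and no p-value is given.

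Cells enter the cycle when D-type cyclins, made in response to growth signals, activate CDK4 and CDK6, which release E2F factors from the retinoblastoma protein. Cyclin E with CDK2 then commits the cell to S phase, in which the Mcm helicase, loaded in G1 with the help of Cdc6, opens the origins of replication. Cyclin A2, cyclin B and CDK1 carry the cell through G2 into mitosis. Epithelial cells of the adult collecting duct divide rarely, so genes made only in dividing cells give weak signals in bulk RNA of such tissue. In bulk samples fewer cells of a type and less RNA per cell cannot be told apart.

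The value of a probe is its spot signal relative to the 75th percentile of its array, which was 250.03 on the CKO array and 314 on the WT array, and a difference is the log2 value of CKO minus that of WT. The ± beside a difference is the error that the scanner software gives for the spots, here called the spot error, and does not cover mice. It stayed near 0.20 for bright probes and is not a measured spread of repeated spots. For Pcna it was 0.20, while the standard deviation measured for the difference of single spots was 0.068. Signals well above background began at 11.6 on the CKO array and 12.04 on the WT array, and a probe is said to have passed on an array where it was well above background there. Where a gene had several probes, the brightest well above background on at least 1 array gave its value. Different probes of 1 gene had a root mean square standard deviation of 0.27 in their differences over 5308 genes, which serves as a measure of how far a single probe can be trusted. Gata2 itself was at 77.3% and 80.4% of WT by its 2 probes, and the deleted exons are not named in the labels.

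Some of the promoters are shown first, because genes of G2 and mitosis share known sequence elements. Mitotic promoters often hold a CHR element (TTTGAA) near CCAAT boxes, through which the DREAM and MuvB complexes silence them in resting cells, and promoters of S phase genes often hold E2F elements. The 120 bases before the annotated start are given 5′ to 3′ on the strand of the gene, from RefSeq on GRCm38.p6, with TTTGAA in capitals, as are CCAAT and the E2F elements TTTCCCGC as well as TTTCGCGC, besides TTTGCCGC and then TTTGGCGC, on either strand. The first 4 genes act in mitosis or G2 and were lower in CKO cells, Cdc25a acts at G1/S and was lower, and Mcm6 acts in S phase and lay near 0.
Cdk1, chr10:69352913-69353032, minus strand: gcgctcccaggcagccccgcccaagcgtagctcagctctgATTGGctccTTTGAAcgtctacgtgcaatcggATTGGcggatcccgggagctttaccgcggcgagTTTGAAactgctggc
Top2a, chr11:99024190-99024309, minus strand: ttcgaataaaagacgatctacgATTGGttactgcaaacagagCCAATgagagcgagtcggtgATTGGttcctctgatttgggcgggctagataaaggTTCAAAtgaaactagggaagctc
Ube2c, chr2:164769809-164769928, plus strand: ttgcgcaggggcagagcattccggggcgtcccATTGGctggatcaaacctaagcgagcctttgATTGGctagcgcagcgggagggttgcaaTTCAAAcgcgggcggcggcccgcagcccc
Cdc20, chr4:118437344-118437463, minus strand: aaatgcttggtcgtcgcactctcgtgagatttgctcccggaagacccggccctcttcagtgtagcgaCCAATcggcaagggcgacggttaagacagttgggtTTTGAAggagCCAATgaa
Cdc25a, chr9:109875459-109875578, plus strand: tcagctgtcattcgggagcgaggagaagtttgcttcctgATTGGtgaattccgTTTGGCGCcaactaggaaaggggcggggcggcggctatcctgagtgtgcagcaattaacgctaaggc
Mcm6, chr1:128359706-128359825, minus strand: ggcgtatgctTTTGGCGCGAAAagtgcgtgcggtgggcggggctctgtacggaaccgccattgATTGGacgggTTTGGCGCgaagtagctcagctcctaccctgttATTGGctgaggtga
In Mcm6 the first run of capitals is a pair of E2F elements that overlap on opposite strands.

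Across the whole group 28 genes were lower and 25 higher in CKO cells, with a median of −0.06, against 42.0% lower, 57.1% higher and a median of 0.04 over all 18972 genes measured. At least 1.5-fold lower were 5 members, Ccnd2, Ccna2, Cdc25a, Cdkn1a and Cdk1, against 6.36% of all genes. Cdk1 passed on WT alone and so could only count as lower; among genes that passed on both arrays the count was 4 of 52, against 5.51% of all genes. None of the 53 was at least 1.5-fold higher by its brightest probe, though a dimmer Cdk17 probe gave 0.91, against 6.78% of all genes. None was 2-fold apart, against 2.84% of all genes lower and 1.49% higher by that much. The group as a whole thus lay near the background, and its members differed by class. G1 genes had a median of −0.28 (6 of 7 lower), S phase genes one of −0.03 (7 of 14 lower) and G2/M genes one of −0.33 (10 of 12 lower), while the CDK inhibitors were at 0.07 and the other CDKs at 0.11. The central 50% of all genes measured lay between −0.12 and 0.23.

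**Figure D1:**
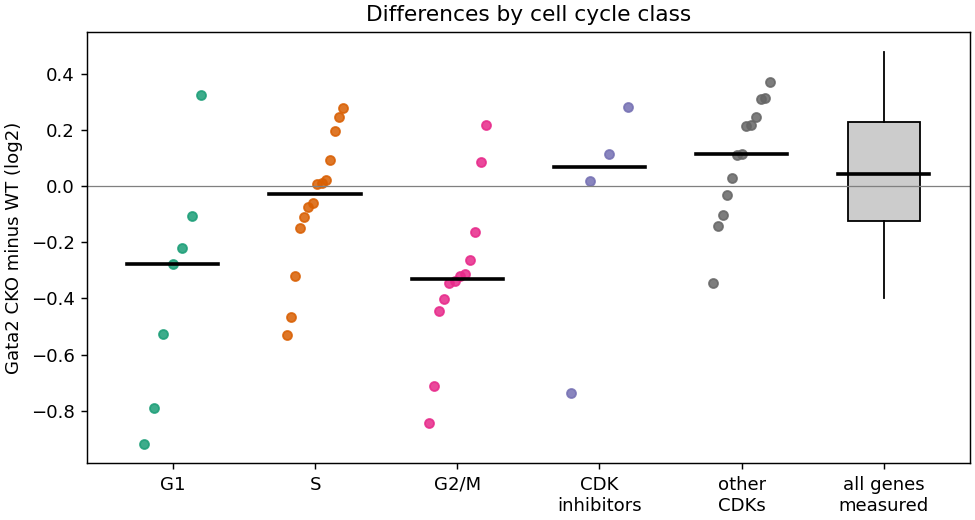
Differences in log2 signal, Gata2 CKO minus WT, of the measured genes of each class (points, 1 per gene, Cdk1 at its bound) with the class median (black line), beside all genes measured (box, central 50%; whiskers, central 80%; line, median). The medians of G1 (−0.28) and G2/M (−0.33) lie below the box of all genes, and that of S phase (−0.03) lies inside it.

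The scaling matters for these signs. When 8 spike-in control transcripts were set equal between the arrays in place of the 75th percentile, all differences moved by −0.55, the median of all genes came to −0.50 and all 53 members lay below 0, so no member was higher on that scale. The 0.9 quantile of all genes was 0.48 before this shift, so that count alone says little about the members. With the other normalizations 18 (cyclic loess) to 26 (normexp) members were higher. On the 75th percentile scale 25 were (47.2%), against 57.1% of all genes, a share not counted for the other scales. Relative to the median of all genes, the G1, S and G2/M medians lay at −0.33, −0.08 and −0.38 with spike-in scaling and at −0.32, −0.07 and −0.37 on the 75th percentile scale. The S phase genes split 7 lower and 7 higher on the 75th percentile scale, but 11 and 3 after cyclic loess.

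**Figure D2:**
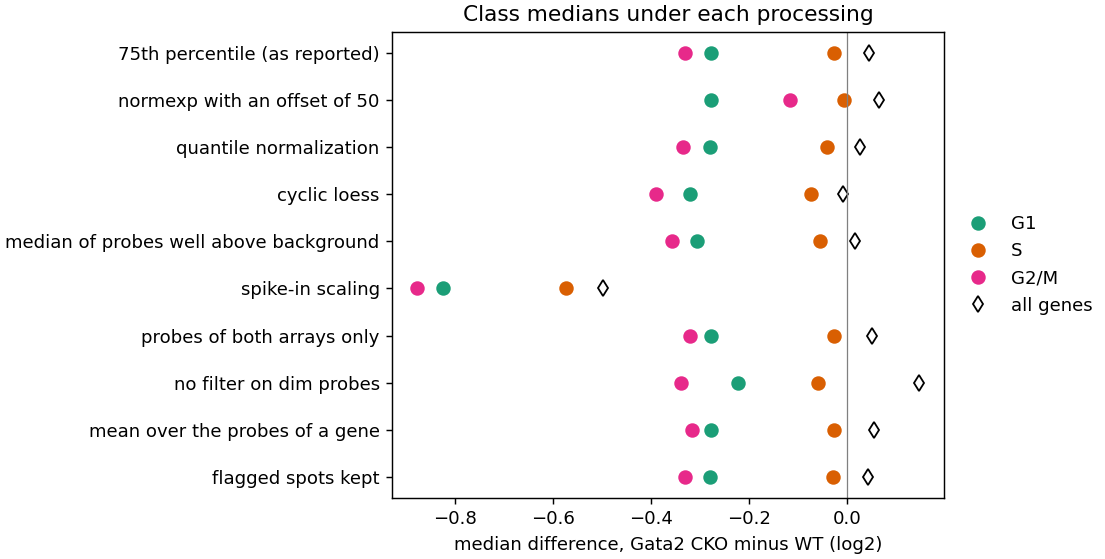
Median log2 difference, Gata2 CKO minus WT, of G1, S and G2/M genes (coloured points) and of all genes (open diamonds) under the processing as reported (top row) and 9 alternatives. G1 and G2/M lie left of S and of all genes in every row, and G2/M comes closest to S with normexp, at −0.12 against −0.01.

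Among the D-type cyclins, the sensors of growth signals, the 3 family members differed from each other. Cyclin D2, Ccnd2, had a signal of 0.579 times the 75th percentile in CKO cells and 1.09 times in WT cells. It was at −0.92 ± 0.21, or 52.97% of the WT level, and 3.29% of all genes lay lower still. Its other probes had signals of 0.452 and 0.518 in CKO cells and 0.797 and 0.823 in WT cells, and gave −0.82 and −0.67. The 3 probes lie at chr6:127079694-127079753, chr6:127098696-127098755 and chr6:127089187-127089246 (mm9), and all of them put Ccnd2 lower in CKO cells.

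Cyclin D1, Ccnd1, was measured by 1 probe printed 10 times. The spot signals ran from 1319 to 1480 (median 1391) on the CKO array and from 2397 to 2654 (median 2530) on the WT array. After scaling they ran from 5.28 to 5.92 in CKO cells and from 7.63 to 8.44 in WT cells, so no spot of the CKO array reached the lowest of the WT array. The difference was −0.53, or 69.4% of WT, with a standard deviation of 0.073 for the difference of single spots. Cyclin D3, Ccnd3, had a signal of 5.32 in CKO cells and 4.25 in WT cells. It was at 0.32 ± 0.20 (−0.22 with spike-in scaling), which is 1.24 log2 units above Ccnd2 and 0.85 above Ccnd1, distances that a change of array scale leaves as they are.

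**Figure D3:**
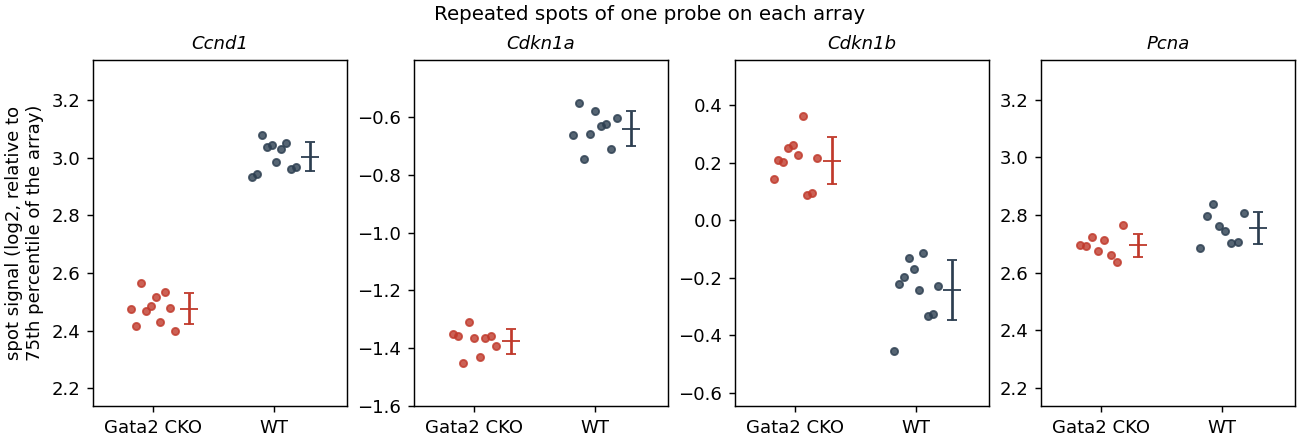
Log2 spot signal relative to the 75th percentile of its array for 4 probes printed 10 times (points, unflagged spots; bars, mean ± SD of spots of 1 array, not of mice), with the Gata2 CKO array on the left of each panel and WT on the right. Spots of Ccnd1 and Cdkn1a lie lower on the CKO array and those of this Cdkn1b probe higher, with no overlap, and the spots of Pcna overlap.

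The kinases that D-type cyclins activate were closer to 0. Cdk4 had a signal of 1.63 in CKO cells and 1.97 in WT cells and was at −0.28 ± 0.20. The brightest probe of Cdk6 gave 4.52 in CKO cells and 5.27 in WT cells, a difference of −0.22. Its other probes gave −0.17 (0.0741 in CKO cells and 0.0831 in WT cells) and 0.53 (0.493 in CKO cells and 0.343 in WT cells), so its direction is uncertain.

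Cdc25a, the phosphatase that activates CDK2 at the G1/S step, had a signal of 0.571 in CKO cells and 0.987 in WT cells. It was at −0.79 ± 0.21, or 57.8% of WT, and its second probe, at 0.168 in CKO cells and 0.255 in WT cells, gave −0.60. These probes, at chr9:109795020-109795082 and chr9:109795140-109795199 (mm9), both put it at least 1.5-fold lower. Cyclin E1, Ccne1, was at −0.11 ± 0.23, with 0.177 in CKO cells and 0.190 in WT cells, a difference smaller than the spot error. Its other probe passed on WT alone and gave a signal at least 1.23-fold lower in CKO cells. Cdk2 and cyclin E2, Ccne2, the partners of the G1/S step, passed on neither array, with signals of at most 8.99 in CKO cells and 11.4 in WT cells.

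The CDK inhibitors also differed among themselves. Cdkn1a, which encodes p21, an inhibitor induced by p53 and by stress, had 9 unflagged spots on each array. Their signals ran from 91.3 to 101 (median 97.1) on the CKO array and from 188 to 215 (median 203) on the WT array. Scaled, they ran from 0.365 to 0.403 in CKO cells and from 0.597 to 0.683 in WT cells. The spots did not overlap, and Cdkn1a was at −0.74 or 59.996% of WT, with a standard deviation of 0.075 for single spots. With normexp, a background correction that adds an offset of 50, it was at −0.49.

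Cdkn1b, which encodes p27, the inhibitor that holds resting cells in G1, lay on the other side. Its brightest probe had a signal of 4.44 in CKO cells and 4.10 in WT cells and gave 0.12 ± 0.20. The other probes gave 0.35 (0.691 in CKO cells and 0.544 in WT cells) and 0.45, the last from 10 spots that ran from 1.06 to 1.29 in CKO cells and from 0.731 to 0.924 in WT cells. All 3 probes were thus higher in CKO cells on this scale, while with spike-in scaling the value of the brightest was −0.43. Cdkn2b, which encodes p15, was at 0.28 ± 0.20, with 3.34 in CKO cells and 2.74 in WT cells. Cdkn2d, which encodes p19Ink4d, had 1.91 in CKO cells and 1.88 in WT cells, at 0.02. Cdkn2a, the senescence gene of p16 and p19Arf, was well above background on neither array, with mean signals of 2.54 in CKO cells and 2.66 in WT cells, about those of the negative controls at 2.53 and 2.67.

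The licensing genes of S phase lay close to 0. The helicase subunits Mcm2, Mcm4, Mcm6 and Mcm7 were bright, with signals of 1.03, 2.49, 4.27 and 2.33 in CKO cells against 1.02, 2.63, 4.62 and 2.32 in WT cells. Their differences, from −0.11 to 0.01, were all smaller than the spot error of 0.20. Mcm2 lies 0.677 Mb from Gata2 on chromosome 6 and was at 0.01. The other subunits of the same hexamer were lower: Mcm3 had 0.388 in CKO cells and 0.536 in WT cells, at −0.47 ± 0.21, with −0.62 at its second probe (0.0947 in CKO cells and 0.145 in WT cells). Mcm5 had 0.455 in CKO cells and 0.568 in WT cells, at −0.32 ± 0.21.

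Pcna, the clamp that tethers polymerases to DNA, had 8 unflagged spots on each array, from 6.22 to 6.80 in CKO cells and from 6.43 to 7.15 in WT cells. These overlapped, and the difference was −0.06 with a standard deviation of 0.068 for single spots. Tyms, which makes thymidylate, had 2.55 in CKO cells and 2.82 in WT cells, at −0.15, and −0.07 at its second probe. Rrm2, a subunit of ribonucleotide reductase, had 0.317 in CKO cells and 0.312 in WT cells, at 0.02. These suppliers of nucleotides thus lay within their spot errors. Cdc6, which loads the helicase, was dim, with signals of 13.1 in CKO cells and 23.9 in WT cells before scaling. It was at −0.53 ± 0.36 by 1 probe (0.03 with normexp), and its other probe was well above background on neither array. Cdc7, the kinase that fires origins, had 0.118 in CKO cells and 0.0976 in WT cells, at 0.28 ± 0.27, and its other 2 probes passed on neither array. Mcm10, an initiation factor, had 0.157 in CKO cells and 0.147 in WT cells, at 0.09. The paralogs Mcm8 and Mcm9, which act in homologous recombination, were at 0.20 and 0.25. Mcm8 had 0.338 in CKO cells and 0.295 in WT cells, with −0.10 at its second probe, and Mcm9 had 0.967 in CKO cells and 0.815 in WT cells. Cdc45, a part of the active helicase, passed on neither array, with signals of 4.21 in CKO cells and 11.04 in WT cells. On the spike-in scale all of these values lay below 0.

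Of the 12 measured genes of G2 and mitosis 10 were lower, and 9 of 11 among those that passed on both arrays. Cyclin A2, Ccna2, which acts in S phase and G2, had a signal of 0.122 in CKO cells and 0.219 in WT cells. It was at −0.84 ± 0.25, or 55.8% of WT, by its single probe at chr3:36463978-36464037 (mm9), and 3.84% of all genes lay lower. Cdk1, the mitotic kinase, had a signal of 11.4 on the CKO array, not well above background, and 23.8 on the WT array. It was thus at least 1.64-fold lower, by 1 probe that passed only through the WT array, and its other probe was well above background on neither. With normexp Ccna2 came to −0.16, and the bound of Cdk1 no longer lay below 0 and was set to 0. Both values thus depend on the background correction. The offset of 50 in normexp exceeds both Cdk1 signals and the Ccna2 signal on the CKO array, 30.6 before scaling. The part of the offset in the normexp values of Ccna2 and Cdk1 was not tested.

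The other mitotic genes showed smaller differences. Top2a, the topoisomerase that untangles chromosomes, was at −0.44 ± 0.30 (−0.01 with normexp), with signals of 0.0738 in CKO cells and 0.1003 in WT cells. A second Top2a probe, which passed on WT alone, was at least 1.52-fold lower, and the other probe passed on neither array. Ube2c, the ubiquitin-conjugating enzyme of the anaphase-promoting complex, was at −0.40 ± 0.22 (−0.12 with normexp), with 0.230 in CKO cells and 0.304 in WT cells. Cyclin B2, Ccnb2, was at −0.35 ± 0.21, with 0.389 in CKO cells and 0.495 in WT cells. Mki67, the marker Ki-67 of cycling cells, had signals of 0.880 in CKO cells and 1.11 in WT cells, and its probes gave −0.34 and −0.28.

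Plk1, a mitotic kinase, had 0.2997 in CKO cells and 0.374 in WT cells, at −0.32 ± 0.22. Aurka, the spindle pole kinase, had 0.302 in CKO cells and 0.374 in WT cells, at −0.31 ± 0.21. Cdc20, an activator of the anaphase-promoting complex, had 0.483 in CKO cells and 0.579 in WT cells, at −0.26 ± 0.21. Each of these kinases and activators was lower by little more than its spot error. Birc5, which encodes survivin, had 0.786 in CKO cells and 0.881 in WT cells, at −0.16 ± 0.21, within its spot error. The exceptions to the lower values were the checkpoint kinase gene Bub1 and the phosphatase gene Cdc25b. Bub1 had 1.29 in CKO cells and 1.22 in WT cells, at 0.08, and its second probe passed on neither array. Cdc25b had 3.86 in CKO cells and 3.32 in WT cells, at 0.22, and 0.09 at each of its other probes, all below 0 with spike-in scaling. Cyclin B1, Ccnb1, with 3 probes, the kinase gene Aurkb and Cdc25c passed on neither array, with signals of at most 4.52 in CKO cells and 10.6 in WT cells. With normexp the G2/M median was −0.12, and the G1 median stayed at −0.28.

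**Figure D4:**
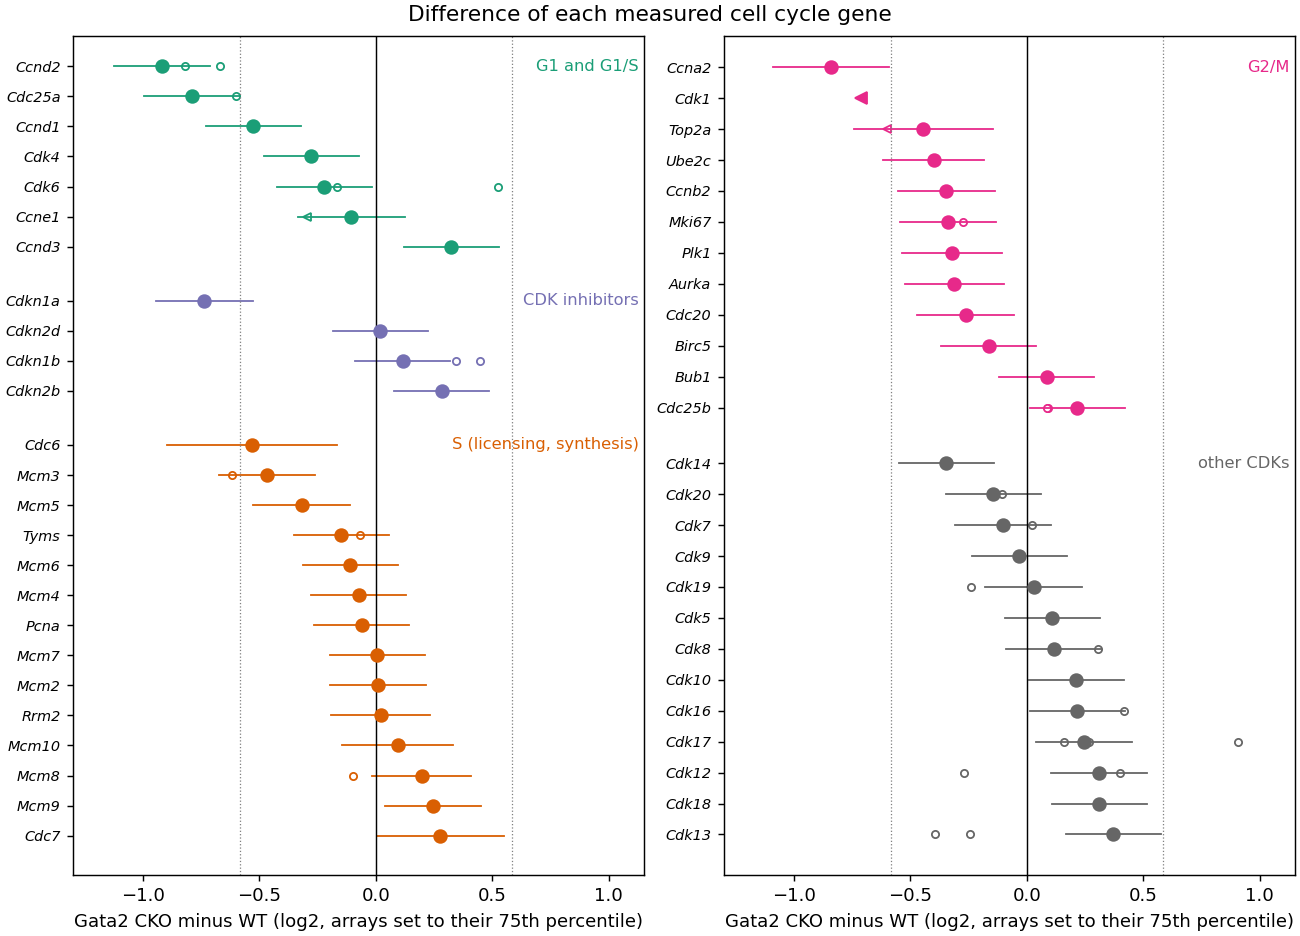
Log2 difference, Gata2 CKO minus WT, of each measured gene by class (large filled symbols, the brightest probe, with the spot error as a bar; small open symbols, other probes; triangles, bounds of probes that passed on WT alone; dotted lines, 1.5-fold). Ccnd2, Cdc25a, Cdkn1a, Ccna2 and Cdk1 lie left of the dotted line at −0.58, and no gene lies right of the one at 0.58 by its brightest probe.

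The other CDKs are known mostly for roles in transcription, neurons or vesicle traffic, and Cdk7 also activates the CDKs of the cycle. All 13 were measured, 9 of them higher and 4 lower, between −0.35 and 0.37. The 6 farthest from 0 were Cdk13 at 0.37, Cdk14 at −0.35, Cdk18 and Cdk12 at 0.31, Cdk17 at 0.25 and Cdk16 at 0.22. Cdk12 and Cdk13, kinases of RNA polymerase II, had probes of opposite sign, down to −0.27 and −0.40. A dimmer Cdk17 probe that passed on both arrays gave 0.91 ± 0.27, or 1.88-fold higher. Its signals were 0.143 in CKO cells and 0.0760 in WT cells. The other Cdk17 probes that passed gave 0.16 and 0.27. Of the 6 genes matched by the start of their names alone, Cdkn2aip was at 0.35, Cdkn2aipnl at 0.29 and Mcm3ap at 0.03, and Ccna1, Ccnb3 and Ccnb1ip1 were well above background on neither array. Over the whole group 21 genes had several measured probes, and in 6 of them these differed in sign: Cdk6, Cdk7, Cdk12, Cdk13, Cdk19 and Mcm8. The same share over all genes with several probes was not counted.

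Other genes of the pathway were taken as lists. Over all genes measured, 42.0% were lower and the median was 0.04. Of the list of spindle and checkpoint genes, 15 of 20 measured were lower and 5 higher, with a median of −0.17. The farthest from 0 were the checkpoint kinase gene Bub1b, at least 1.93-fold lower and passing on WT alone, the phosphatase gene Cdkn3 at −0.82 and the spindle gene Tpx2 at −0.76. Genes of origins, forks and nucleotide supply split 15 and 15 over 30, with a median of 0.00, among them thymidine kinase, Tk1, at −0.57 and the licensing factor Cdt1 at −0.40. Regulators of the E2F, RB and DREAM system had a median of 0.09, with 7 of 18 lower, and the farthest were Lin9, a MuvB subunit, at −0.39, E2f2 at 0.37 and E2f4 at 0.27. Targets of p53 beside Cdkn1a were lower in 12 of 15, with a median of −0.14. Phlda3 was at −1.15, Gdf15 at −0.70 and Plk2 at −0.54. The other CDK inhibitors and ubiquitin ligase parts had a median of −0.14 over 6 genes, with Cdkn1c, which encodes p57, at −0.25, Skp2 at 0.23 and Cdkn2c, which encodes p18, at −0.22.

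Of the 63 genes, 53 had a RefSeq promoter. TTTGAA, on either strand of the 300-base window that ends 50 bases past the start, was found for 8 of 12 G2/M genes, against 20.2% of all 27025 genes in the table and 3 of 14 S phase genes. The 8 G2/M genes with it were Cdk1, Top2a, Ube2c, Ccnb2, Mki67, Plk1, Aurka and Cdc20, all measured and all lower, from −0.71 (a bound) to −0.26, with a median of −0.34. Among them Cdk1 passed on WT alone and could only count as lower. The 3 measured G2/M genes with an entry and no such letters, Birc5, Bub1 and Cdc25b, were at −0.16, 0.08 and 0.22. With normexp the genes with it other than Cdk1 ran from −0.28 (Mki67) to −0.01 (Top2a), and Birc5, Bub1 and Cdc25b were at −0.11, 0.06 and 0.15. Ccna2, the lowest measured G2/M gene at −0.84, had no promoter entry and so is in neither set. The cyclin genes Ccnd1 and Ccnd2 had no entry either. Outside G2/M the measured genes that held it, Mcm2, Cdc7, Cdkn2b and Cdk16, lay between 0.01 and 0.28. Over all genes measured, 1620 with it had a median of 0.01 (46.3% lower) and 9428 without it one of 0.03 (44.5% lower). CCAAT was found for 11 of 12 G2/M genes and 11 of 14 S phase genes against 41.1% of all genes, and an E2F element for 6 of 14 S phase genes and 1 of 12 G2/M genes against 2.60%. The GATA letters AGATAA or also AGATAG, besides TGATAA or also TGATAG, were found for 7 of the 53 genes against 33.0% of all genes.

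Markers of other cells in the preparation differed between the arrays too, where 42.0% of all genes measured were lower. Of the macrophage and dendritic cell markers 8 of 8 had lower values in CKO cells, with summed scaled signals of 79.1 in CKO cells and 147 in WT cells. All 5 fibroblast and pericyte genes were lower, with sums of 3.98 in CKO cells and 6.13 in WT cells, and so were the 4 measured endothelial genes, of which Pecam1 and Cdh5 passed on WT alone and could only count as lower, with sums of 0.341 in CKO cells and 0.490 in WT cells, while Tie1 was well above background on neither array. Of 5 proximal tubule genes 4 were lower, with sums of 4.78 in CKO cells and 6.63 in WT cells. Of 5 T and B cell genes 2 were lower, with sums of 0.421 in CKO cells and 0.828 in WT cells. Without Cd8a, which passed on WT alone and was left out after its values were seen, these sums were 0.378 in CKO cells and 0.359 in WT cells. Cd3g, which both pairs of sums include, passed on the CKO array alone and could only count as higher. Its signals before scaling were 13.8 in CKO cells and 8.63 in WT cells. The defining markers of the collecting duct were all well above background. The 6 principal cell genes were lower, with sums of 408 in CKO cells and 533 in WT cells, and the 5 intercalated cell genes higher, with 194 in CKO cells and 107.2 in WT cells. The part of any of these cell types in the differences of the cyclins and mitotic genes was not tested.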

How the data were processed

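Total RNA, 50 ng per sample, was amplified and labelled with Cy3, per the labels' protocols. The deposited files hold spot intensity values. Per the file headers, these are linear and come from Agilent Feature Extraction 10.7.3.1, with the background subtracted and detrended, and the probes were placed on mm9. For any normalization between the arrays by the authors, a method is not stated in the labels or file headers. Both arrays lay on 1 slide and were read in 1 scan.

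Each array had 43379 non-control spots. Flagged spots were left out (73 on the CKO array, 66 on the WT array) and 0 were saturated. Log2 signals of the spots of a probe were averaged and set to the 75th percentile. A probe was well above background if over 0.5 of its spots were. One that passed on 1 array only gave a bound: the dim array was set to its own signal or to the lowest passing signal, whichever was higher. A bound that then fell on the other side of 0 was set to 0. Genes are counted past 1.5-fold and 2-fold. For 17684 of the 18972 measured, the probe that gave the value passed on both arrays, and 17688 had any probe that did. Members keep the file's names, and other genes took RefSeq symbols by accession (26875 probes). The place of the probes within transcripts was not analysed here.

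The members, classes, gene lists and alternatives were chosen with earlier results of these data known. Named are all measured genes of the G1, S, G2/M and inhibitor classes, the 6 of the other CDKs and the 3 of each further list farthest from 0, of which 1 is not reported here. Alternatives were normexp, quantile, cyclic loess, median and spike-in scaling, other filters, the mean over probes and flagged spots kept. The steps were tested on simulated data. Normalizations ran in limma 3.58.1 (R 4.3.3), the rest in Python 3.11.15 (pandas 2.3.3, numpy 2.4.6), and figures in matplotlib 3.10.9. The number of arrays limits the precision.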

Additional observations from a re-analysis of the deposited data

How the results depend on the processing

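No paired analysis was possible because each genotype has 1 array. With 1 array per genotype, a median was taken to have moved when it changed by more than the standard deviation of probes of 1 gene (0.27) over the square root of its number of genes, and a single gene when it changed by more than 0.27. S phase members split 11 lower and 3 higher with cyclic loess and 10 and 4 with median scaling. G1 members split 5 lower and 2 higher with normexp and also with the mean over probes. The other CDKs split 5 lower and 8 higher with cyclic loess and 6 and 7 with the mean over probes. Across the 8 alternatives other than spike-in scaling, the G1 median ran from −0.32 to −0.22, the S median from −0.07 to −0.01 and the G2/M median from −0.39 to −0.12, the last value with normexp. With normexp 2 members (3.77%) were at least 1.5-fold lower, Ccnd2 and Cdc25a. Of all genes 483 (2.55%) were at least 1.5-fold and 204 (1.08%) at least 2-fold lower, and 357 (1.88%) and 65 (0.343%) higher. Ccna2, Cdk1 and Cdkn1a fell short of 1.5-fold there. With no filter on dim probes 8 of 63 members were at least 1.5-fold lower and 2 higher, and 3 were 2-fold lower and 1 higher, among all 30198 genes 2488 (8.24%) lower and 2999 (9.93%) higher past 1.5-fold, and 1241 (4.11%) and 1215 (4.02%) past 2-fold. With spike-in scaling 53 members were lower and 0 higher, 27 (50.9%) at least 1.5-fold and 8 (15.1%) at least 2-fold lower, and the medians of G1, S and G2/M came to −0.82, −0.57 and −0.88. Those of the CDK inhibitors and the other CDKs came to −0.48 and −0.43, both turned in sign. Of all genes 6769 (35.7%) were then at least 1.5-fold and 1642 (8.65%) at least 2-fold lower, and 183 (0.965%) and 58 (0.306%) higher. Keeping flagged spots, cyclic loess, quantile normalization and median scaling moved none of the 53 genes, the mean over probes moved Cdk13, and normexp moved 5, namely Ccna2, Cdk1, Cdc6 (which came to 0.03), Top2a and Ube2c. Ccnd2 and Cdc25a were at least 1.5-fold lower under all 9 alternatives, and Cdk1 has no value where only probes that passed on both arrays are kept. Dim signals limit precision: the spot difference of repeated probes had a median standard deviation of 0.25 in the dimmest of 5 bins of signal and 0.065 in the brightest.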
